A study of Mus musculus with 4 samples.

Results

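The genes described here are 8 genes of LIF and gp130 signalling: the ligand Lif, the receptor chains Lifr, Il6st (gp130) and Osmr, the transcription factor Stat3, the feedback inhibitors Socs3 and Socs2, and the kinase gene Pim1. They were chosen by name as the ligand, receptors, Stat3 and feedback targets of this pathway. All 8 were present among the 9997 symbols of the table, each in 1 row. All 8 reached 1 FPKM (sequenced fragments scaled for transcript length and library size) in some library, as 5885 symbols did, and Osmr did so in the ATRA 10-day library alone.

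RNA was sequenced from embryoid bodies (floating balls of differentiating stem cells) grown from ES-E14TG2a, a mouse embryonic stem cell line. There were 4 libraries, 1 per group: control embryoid bodies, and embryoid bodies treated with all-trans retinoic acid (ATRA), a vitamin A derivative that acts through nuclear receptors, labelled 0, 6 and 10 days. The stem cells of all groups had been grown with 5 µg/ml mouse LIF and serum, and LIF is not among the listed components of the embryoid body medium. Treated embryoid bodies received ATRA (5 µM) at days 4 and 6 in culture, and they moved to dishes coated with poly-DL-ornithine and laminin after 8 days. The ATRA libraries share this dosing, so the labels of 0, 6 and 10 days are not different ATRA doses. From which culture day they are counted is not said in the labels. Culture age and time on the coated dishes cannot be told apart among these libraries. No label says how long the control was cultured, so ATRA treatment and culture age cannot be told apart in any comparison with it. The control is listed first below, which sets no order in time. All libraries come from 1 cell line, with the number of embryoid bodies or cultures in each not given in the sources used here.

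LIF binds a receptor made of LIFR and gp130, and the JAK kinases attached to these chains phosphorylate Stat3, which enters the nucleus and switches on genes. In mouse embryonic stem cells this signal holds back differentiation in serum medium. Among its targets is Socs3, whose protein binds gp130 and JAK and shuts the signal down again. Gp130 is shared by the whole interleukin-6 cytokine family, so the same inner pathway also serves other ligands and other cell types.

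Since each group is 1 library, differences have no replicate check, no test is possible, and every value describes these libraries. Differences are given on the log2(FPKM + 1) scale, where changes of low genes come out too small, and "2-fold" means a difference of 1 or more on that scale. The estimated depth was 24500000 to 27200000 fragments per library. The libraries also differed in the RNA levels of cell type markers. The 5 embryonic stem cell markers in the table, led by Pou5f1 (Oct4), summed to 1867 FPKM in the control, 118 FPKM at 0 days, 216 FPKM at 6 days and 194 FPKM at 10 days. The 11 endoderm markers summed to 193, 380, 2615 and 3758 FPKM in the same order, and the 9 epithelial and trophoblast markers to 204, 374, 2447 and 4111 FPKM. The 7 neuronal markers summed to 7.89, 9.62, 70.3 and 34.1 FPKM, the 9 muscle markers to 15.7, 14.3, 69.2 and 318 FPKM, the 7 mesenchyme markers to 1.88, 15.3, 61.6 and 132 FPKM, and the 5 blood and endothelial markers to 21.2, 2.24, 6.00 and 8.31 FPKM. Pecam1 made 21.1 FPKM of that last sum in the control. Sparc alone made 133, 259, 1862 and 2711 FPKM of the endoderm sums, in the order above, and Tnnc1 217 FPKM of the muscle sum at 10 days. Sox7, another of the endoderm markers, went the other way in the ATRA series. It had 19.6 FPKM at 0 days, 5.48 FPKM at 6 days and 3.04 FPKM at 10 days. Some other markers also moved against their sums. At 0 days against the control the endoderm marker Amn differed by -1.03, while 6 of the 11 were 2-fold higher. The epithelial marker Epcam differed by -1.06 there, while 4 of the 9 were 2-fold higher. At 6 days against 0 days the mesenchyme marker Pdgfrb differed by -0.93, while 5 of the 7 were 2-fold higher. Nefl made 39.6 FPKM of the neuronal sum at 6 days. The listed markers at 0 in some library were Prl2b1 and Tpbpa at 0 days, Lum and Dcn in the control, Lum at 0 days, and Hba-a1 in the control and at 0 days. In such bulk libraries, fewer cells of a type and less RNA per cell cannot be told apart, and the part of cell composition in each result below was not tested.

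The 8 genes did not move as a block. Socs2, Pim1 and Lifr had their highest FPKM in the control, though for Lifr the order of the control and 10 days depended on the scaling. Socs3 was level between the control and 10 days and lower at 0 and 6 days. Lif and Osmr were lowest in the control and highest at 10 days. Lif, Lifr, Il6st and Stat3 differed by less than 2-fold between any pair of libraries. The largest range over the 4 libraries was that of Socs2, at 3.18 on the log2 scale, and the smallest that of Il6st, at 0.55.

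**Figure D1:**
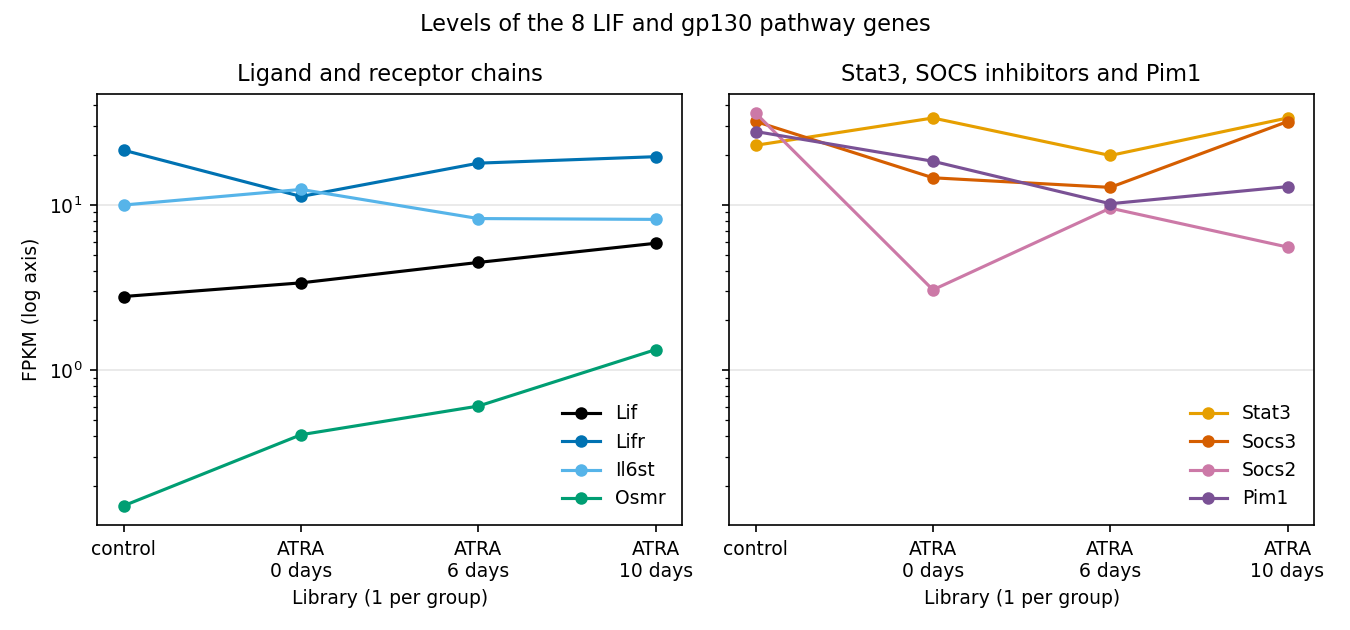
FPKM of the 8 genes (log axis) in the control library and the ATRA libraries at 0, 6 and 10 days, with the ligand and receptor chains on the left and Stat3, the SOCS inhibitors and Pim1 on the right. Each point is 1 library and lines join the points of 1 gene. Socs2 is at 3.06 FPKM at 0 days, and Socs3 stands at 31.9 FPKM in both the control and the 10-day library. Osmr is higher in each library than in the one drawn to its left while staying the lowest of the 8.

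Lif (mm10 chromosome 11, 4257557 to 4272514, plus strand) encodes leukemia inhibitory factor itself. Its level was 2.79 FPKM in the control, 3.38 FPKM at 0 days, 4.49 FPKM at 6 days and 5.86 FPKM at 10 days. In this listed order each library was higher than the one before it, and each of these differences was short of 2-fold. At 10 days Lif stood at 5.86 FPKM, against 2.79 FPKM in the control, a difference of 0.86 on the log2(FPKM + 1) scale and a plain FPKM ratio of 2.10. These levels rest on about 276 to 643 fragments if they came from the longest coding transcript, a counting error of 6.02% in the control and 3.94% at 10 days. Lif ranked low among the 5885 tested genes in every library, between percentile 26.5 at 0 days and percentile 38.8 at 10 days.

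Lifr (chromosome 15, 7090614 to 7197489, plus strand) encodes the receptor chain that binds LIF and is also used by related cytokines. Its level was 21.4 FPKM in the control, 11.2 FPKM at 0 days, 17.9 FPKM at 6 days and 19.6 FPKM at 10 days. The 0-day library alone stood low, and the other libraries lay within 17.9 to 21.4 FPKM. At 0 days the difference from the control was -0.87, and 16.2% of the tested genes had a more negative one. At 6 days Lifr was higher than at 0 days by 0.62.

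Il6st (chromosome 13, 112464070 to 112510086, plus strand) encodes gp130, the shared signalling chain. It had 9.98 FPKM in the control, 12.4 FPKM at 0 days, 8.27 FPKM at 6 days and 8.17 FPKM at 10 days. Its highest library was therefore the one in which Lifr was lowest. The difference at 0 days from the control was 0.29, and at 6 days from 0 days it was -0.53, both short of 2-fold.

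As FPKM is per length, the levels of the receptor chains can be set against each other within a library. In the control the ratio of Lifr to Il6st was 2.14, and at 0, 6 and 10 days of the ATRA series it was 0.907, 2.16 and 2.39. Lifr was thus the more abundant transcript in 3 libraries and Il6st in the 0-day library, where the gap of 10.3% compared with a combined counting error of 2.65%. A scaling of whole libraries leaves these ratios as they are. Lifr has 6 and Il6st 9 annotated coding transcripts, and a gene-level FPKM does not tell membrane-bound from shorter forms.

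Osmr (chromosome 15, 6813577 to 6874969, minus strand) encodes the chain that pairs with gp130 to bind oncostatin M. It was the lowest of the 8 genes in every library, at 0.152 FPKM in the control, 0.408 FPKM at 0 days, 0.608 FPKM at 6 days and 1.33 FPKM at 10 days. In this listed order the level was higher in each library than in the one before it. At 10 days it stood at 1.33 FPKM, against 0.152 FPKM in the control, which is 8.78 times as high in FPKM but 1.02 on the log2(FPKM + 1) scale. The control value rests on about 20 fragments and has a counting error of 22.1%, and the 10-day value on about 200 fragments with an error of 7.08%. Even at 10 days Lifr remained 14.7 times and Il6st 6.13 times as abundant as Osmr, while in the control these ratios were 141 and 65.8.

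Stat3 (chromosome 11, 100885098 to 100939540, minus strand) encodes the transcription factor that carries the signal to the nucleus. Its level was 22.9 FPKM in the control, 33.5 FPKM at 0 days, 19.9 FPKM at 6 days and 33.5 FPKM at 10 days. The libraries at 0 and 10 days stood high and those of the control and 6 days low. The difference was 0.53 at 0 days from the control, -0.72 at 6 days from 0 days and 0.73 at 10 days from 6 days, all short of 2-fold. In the last of these steps 91.7% of the tested genes lay below Stat3. Stat3 was the most abundant of the 8 genes in all 3 ATRA libraries, though at 10 days Socs3 followed within 5.10%. The 3' ends of Stat3 and Stat5a overlap by 72 bases on opposite strands, with the use of strand in counting not given in the sources used here. Stat5a was at 2.03 to 4.82 FPKM in the 4 libraries, below Stat3 in each.

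Socs3 (chromosome 11, 117966079 to 117970047, minus strand) encodes the inhibitor that LIF itself induces through Stat3. It had 31.9 FPKM in the control, 14.6 FPKM at 0 days, 12.8 FPKM at 6 days and 31.9 FPKM at 10 days. The control and 10-day libraries were both high and those at 0 and 6 days both low. At 0 days Socs3 was 2-fold lower than in the control, by -1.08, and at 6 days by -1.26. At 10 days it was higher than at 6 days by 1.26, with 98.1% of the tested genes below it. Its counting error was between 2.12% and 3.50%. The count at 0 days rested on the scaling, since upper-quartile scaling of the libraries put Socs3 at -0.96.

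The upstream sequence of Socs3 is shown with that of Pim1 because both are textbook Stat3 targets and 1 of them holds the letters of a Stat binding site. The stretches lie at GRCm38.p6 (mm10) chr11:117969367-117969616, minus strand, and chr17:29490535-29490752, plus strand, and end upstream of the transcription start that RefSeq gives, that of Pim1 at the first annotated coding transcript. They are written 5′ to 3′ on the gene's strand from the RefSeq promoter table, with any match to TTCNNNGAA in capitals.
Socs3: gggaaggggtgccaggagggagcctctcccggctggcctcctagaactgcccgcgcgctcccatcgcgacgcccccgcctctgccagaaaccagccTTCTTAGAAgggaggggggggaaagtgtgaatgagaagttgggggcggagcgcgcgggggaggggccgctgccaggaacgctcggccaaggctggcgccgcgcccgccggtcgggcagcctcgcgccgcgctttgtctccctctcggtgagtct
Pim1: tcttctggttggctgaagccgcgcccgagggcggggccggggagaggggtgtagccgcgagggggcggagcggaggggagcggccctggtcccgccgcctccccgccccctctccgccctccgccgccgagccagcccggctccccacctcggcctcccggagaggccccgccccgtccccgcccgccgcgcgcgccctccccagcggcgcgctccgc
The motif TTCNNNGAA reads the same on both strands, and its match in Socs3, TTCTTAGAA, begins 154 bases upstream of the RefSeq start. The Socs3 stretch and its match lie inside the annotated span of the gene, 117966079 to 117970047. They are upstream of the RefSeq start and of the 1 coding transcript among the 3 annotated for Socs3. The table held windows of 300 bases for 7 of the 8 genes, 9 windows in all, and that of Socs3 was the 1 window with a match. The motif stood in 8.30% of all 32851 windows. A match is a description of letters and not a shown binding site, and a window without one says nothing of sites elsewhere.

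Socs2 (chromosome 10, 95385362 to 95417180, minus strand) encodes a related inhibitor best known for restraining growth hormone signalling through Stat5. Its level was 35.9 FPKM in the control, 3.06 FPKM at 0 days, 9.56 FPKM at 6 days and 5.56 FPKM at 10 days. The control stood far above all 3 ATRA libraries, and among these the 6-day library was highest. At 0 days Socs2 was lower than in the control by -3.18, and 0.765% of the tested genes had a more negative difference. At 6 days it was higher than at 0 days by 1.38, and at 10 days lower than at 6 days by -0.69. The 0-day level rests on about 180 fragments, a counting error of 7.46%. The 5 embryonic stem cell markers in the table were all 2-fold or more lower at 0 days than in the control, beside 12.8% of all tested genes. Their median difference was -4.77, and none was listed at 0 in any library. At 6 days 2 of these 5, Tdh and Tcl1, were 2-fold higher than at 0 days, beside 8.22% of all tested genes. Esrrb (0.71), Pou5f1 (0.62) and Dnmt3l (0.02) were short of 2-fold. Any link of Socs2 to these markers was not tested.

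Pim1 (chromosome 17, 29490753 to 29496112, plus strand) encodes a serine/threonine kinase that promotes survival and growth and is a Stat3 target. Its level was 27.8 FPKM in the control, 18.4 FPKM at 0 days, 10.2 FPKM at 6 days and 12.9 FPKM at 10 days. It stood highest in the control and lowest at 6 days. The steps were -0.57, -0.79 and 0.32, each short of 2-fold, but against the control Pim1 was 2-fold lower at 6 days, by -1.37, and at 10 days, by -1.05. The 10-day difference of Pim1 was short of 2-fold under upper-quartile scaling, at -0.97. An antisense gene annotated across Pim1 exons, Gm26885, was not analysed here.

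The inhibitor and target transcripts stood differently to Stat3 from library to library. In the control the FPKM ratio of Socs3 to Stat3 was 1.39, and at 0, 6 and 10 days it was 0.435, 0.641 and 0.951. The ratio of Pim1 to Stat3 was 1.21 in the control, and at 0, 6 and 10 days it was 0.548, 0.511 and 0.384. Both targets thus exceeded Stat3 in the control and lay below it in every ATRA library. From 0 to 10 days the ratio of Socs3 to Stat3 was higher in each later library. The ratio of Pim1 to Stat3 was lowest at 10 days. Its values at 0 and 6 days lay near each other, with counting errors of 2.77% and 3.81% for Pim1 alone. The ratio of Socs2 to Socs3 was 1.12 in the control, and at 0, 6 and 10 days it was 0.210, 0.749 and 0.174, so that the inhibitors were near parity in the control and Socs3 was the more abundant in each ATRA library.

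**Figure D2:**
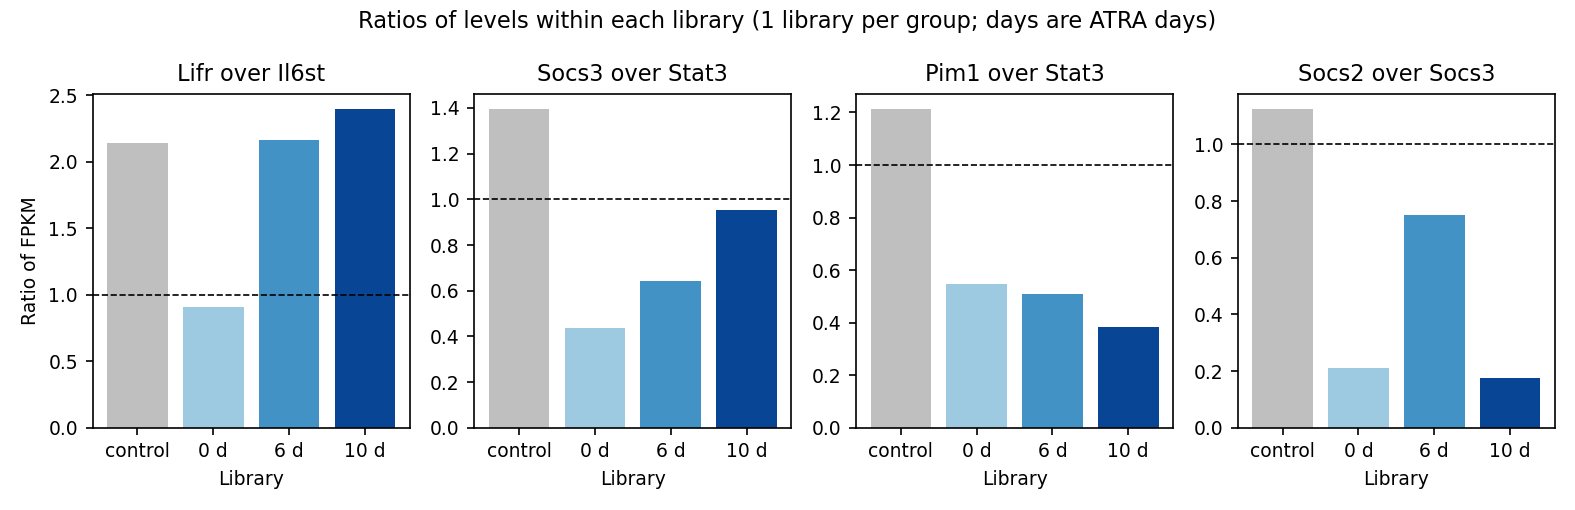
Ratio of FPKM of Lifr to Il6st, Socs3 to Stat3, Pim1 to Stat3 and Socs2 to Socs3 in the control library and the ATRA libraries at 0, 6 and 10 days. Each bar is 1 library and the dashed line marks equal levels. The Lifr to Il6st ratio lies below the line at 0 days alone, at 0.907, while Socs3 to Stat3 and Pim1 to Stat3 lie above it in the control alone, at 1.39 and 1.21.

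The order of the 8 levels changed with these shifts. In the control it was Socs2, Socs3, Pim1, Stat3, Lifr, Il6st, Lif and Osmr. At 0 days it was Stat3, Pim1, Socs3, Il6st, Lifr, Lif, Socs2 and Osmr. At 6 days it was Stat3, Lifr, Socs3, Pim1, Socs2, Il6st, Lif and Osmr, and at 10 days Stat3, Socs3, Lifr, Pim1, Il6st, Lif, Socs2 and Osmr. Neighbours in these orders were mostly apart by over 3 times their combined counting error. That error covers counting alone and assumes the longest coding transcript, so other differences between genes are not in it. The neighbours closer than 3 times this error were Lif and Socs2 at 0 days (a gap of 10.2% for an error of 9.14%) and at 10 days (5.43% for 6.73%). Pim1 and Socs2 at 6 days (6.31% for 5.77%) and Stat3 and Socs3 at 10 days (5.10% for 2.51%) were also closer.

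The first comparison asked what the ATRA-treated embryoid bodies at 0 days expressed differently from control embryoid bodies. Of the 8 genes 2 were 2-fold or more lower at 0 days, Socs2 and Socs3, and none was higher. Over all tested genes 12.8% were lower and 12.2% higher, 25.0% in either direction, which is also the share that 2 of 8 makes. The median difference of the 8 was -0.18, beside -0.04 over all tested genes. The balance of all genes depended on the scaling: 48.9% of the genes past 2-fold were higher on the deposited scale, 60.6% under median-ratio scaling over genes at 1 FPKM in every library and 65.5% under upper-quartile scaling over the tested genes. The median of all genes was 0.07 and 0.14 under these scalings, against -0.04 as deposited, and the difference of Socs2 was -3.03 and -2.96.

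In the second comparison, 6 days of the ATRA series against 0 days, 1 of the 8 genes was 2-fold higher, Socs2, and none lower. Over all tested genes 8.22% were higher and 4.88% lower (13.1% in all), and the medians were 0.01 for the 8 genes and 0.01 for all. Stat3, Pim1 and Il6st lay low among all genes in this step, with 9.52%, 7.90% and 15.7% of the tested genes below them. Over the same step 9 of the 11 endoderm markers and all 9 epithelial and trophoblast markers in the table were 2-fold higher.

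In the third comparison, 10 days against 6 days, 1 of the 8 was 2-fold higher, Socs3, and none lower, where 3.70% of all tested genes were higher and 0.850% lower (4.55% in all). The median of the 8 genes was 0.32, beside 0.02 over all. Of the 8, 6 had a difference above 0, while Socs2 stood at -0.69 and Il6st at -0.01. In this step 5 of 7 tested muscle markers and 4 of 7 mesenchyme markers were 2-fold higher.

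The 3 wider comparisons span the series and share libraries with those above. At 10 days against 0 days Socs3 was 2-fold higher, by 1.08, and none of the 8 was lower (all genes: 14.4% higher, 7.60% lower, 22.0% in all). Stat3 differed by 0.00 there. At 6 days against the control 3 of the 8, Socs3, Socs2 and Pim1, were 2-fold lower and none higher (all genes: 12.5% lower, 15.3% higher, 27.8% in all). At 10 days against the control Socs2, by -2.49, and Pim1 were lower and Osmr was higher (all genes: 17.1% lower, 19.6% higher, 36.7% in all). Osmr was tested only because its 10-day level, 1.33 FPKM, passed the 1 FPKM filter. Its difference of 1.02 was just past 2-fold, and this call cannot stand as support for a difference. Socs3 differed by -0.00 in this comparison, at 31.9 FPKM in both libraries, and stood at 0.08 under upper-quartile scaling. Upper-quartile scaling over the tested genes put Socs3 at 0.94 at 10 days against 0 days, short of 2-fold. The same scaling changed the share of higher genes among all genes past 2-fold to 67.5% at 10 days against 6 days (81.3% as deposited), 53.9% at 10 days against 0 days (65.5% as deposited) and 67.5% at 6 days against the control (55.2% as deposited).

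**Figure D3:**
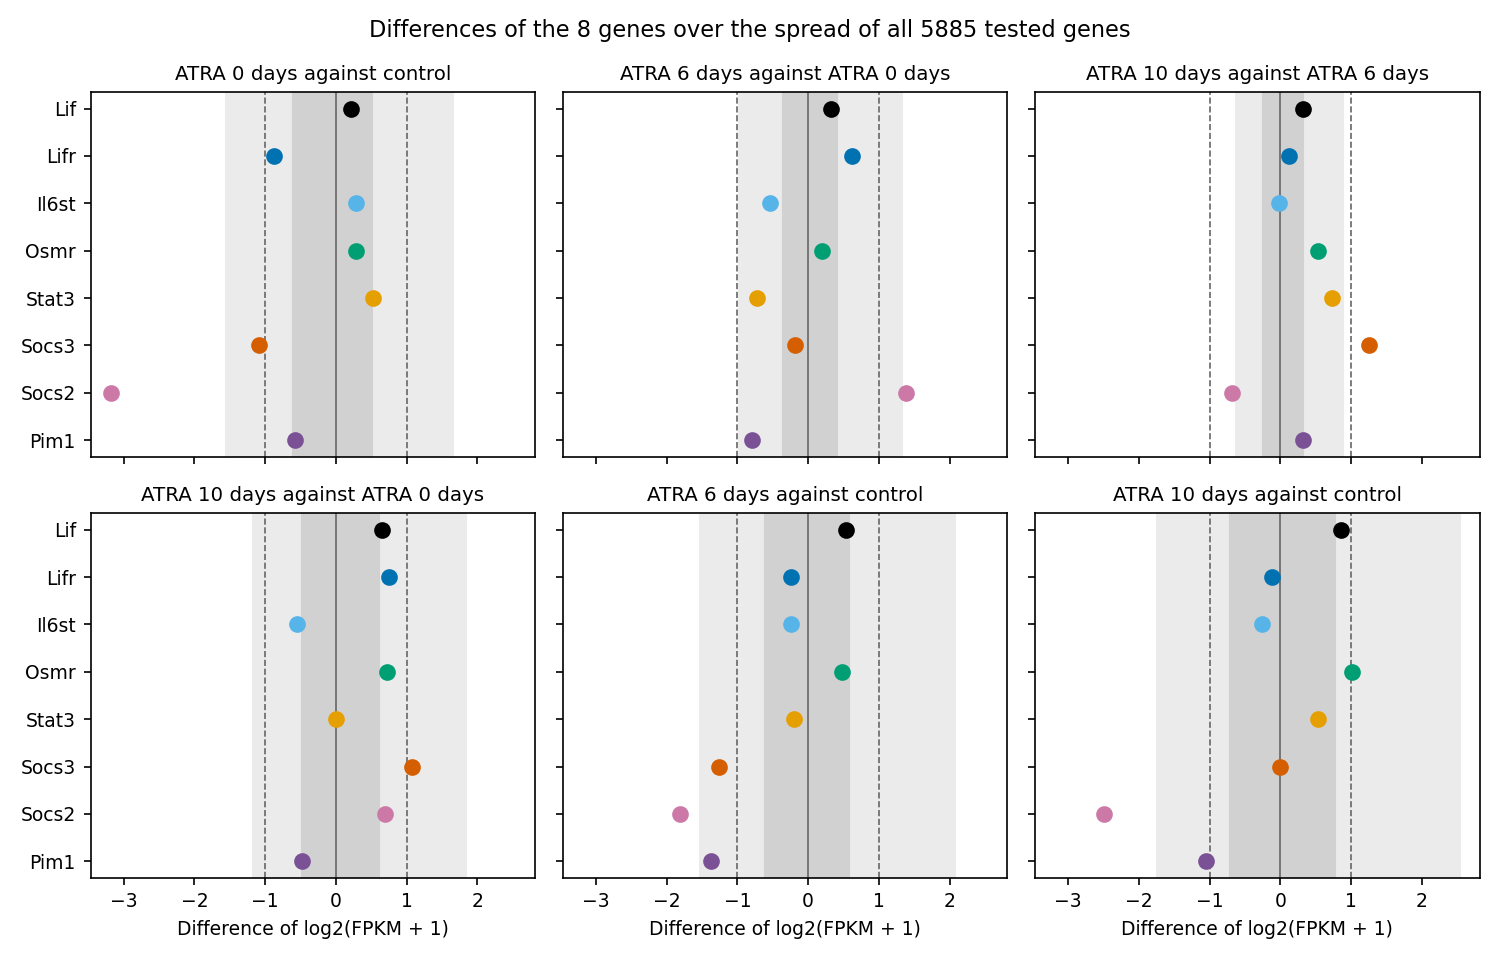
Difference of log2(FPKM + 1), first-named library minus second, for the 8 genes in the 6 comparisons. Each dot is 1 gene; the dark band holds the middle of all 5885 tested genes (percentiles 25 to 75), the light band percentiles 5 to 95, and dashed lines mark 2-fold. Socs2 lies outside the light band in 5 of the 6 comparisons, farthest at 0 days against the control (-3.18), and Socs3 in 1, at 10 days against 6 days (1.26).

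The wider pathway was described from lists of relatives of these genes, of which the table holds only some members. Of 11 other ligands of the family and their partners 2 were in the table and 1 was tested. Osm, which encodes oncostatin M, was at 1.12 FPKM in the control, 0.0204 FPKM at 0 days, 0.248 FPKM at 6 days and 0.133 FPKM at 10 days. It was thus highest in the control, where its receptor chain Osmr was lowest. Both genes were near the floor: at 0 days 3 fragments per kb of transcript made 0.114 FPKM, above the Osm level there. The control value of Osmr rests on about 20 fragments. Ebi3, a subunit of interleukin-27, stayed at or under 0.285 FPKM. Of 5 other receptor chains 1 was in the table, Il31ra, listed at 0 in the control and at 0 days and at or under 0.0187 FPKM later.

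Of 10 JAK and other STAT genes 6 were in the table, all STATs, and all were tested. At 0 days against the control 1 was 2-fold lower and none higher, with a median of -0.43 (all genes: 12.8% lower, 12.2% higher). This was Stat6, the factor of interleukin-4 signalling, with 7.26 FPKM at 0 days against 17.4 FPKM in the control, a difference of -1.15 that was -0.92 under upper-quartile scaling over the tested genes. Stat5a and Stat5b, neighbours on chromosome 11 and partners of growth hormone and prolactin signalling, differed in opposite directions, short of 2-fold. Stat5a had 2.03 FPKM at 0 days against 4.82 FPKM in the control, and Stat5b 7.78 FPKM against 3.96 FPKM. At 6 days against 0 days 2 STATs were 2-fold lower and none higher (all genes: 4.88% lower, 8.22% higher). They were Stat4 at 0.389 against 2.77 FPKM and Stat5b at 3.36 against 7.78 FPKM. The difference of Stat5b was at the 2-fold threshold, at -1.01, and -0.99 under upper-quartile scaling. No STAT passed 2-fold at 10 days against 6 days, where 4.55% of all tested genes did.

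Of 14 other inhibitors 6 were in the table and tested. At 0 days against the control 1 was higher and none lower, Socs5, at 4.47 against 1.51 FPKM (all genes: 12.2% higher, 12.8% lower). Socs1, which blocks JAK kinases directly, was at 1.63 FPKM in the control, 3.53 FPKM at 0 days, 3.42 FPKM at 6 days and 8.08 FPKM at 10 days, and it was the 1 inhibitor that was 2-fold higher at 10 days against 6 days, by 1.04. In that comparison 3.70% of all tested genes were higher. Upper-quartile scaling put the difference of Socs1 there at 0.98, short of 2-fold. Socs7 stood highest at 0 days, at 11.0 FPKM, and was 2-fold lower at 6 days, at 4.48 FPKM. Pias2, a SUMO ligase that binds STAT proteins, stayed short of 2-fold in every step but had 14.8 FPKM at 10 days against 33.8 FPKM in the control.

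Of 17 genes of the ERK and PI3K arm 7 were in the table and tested. At 0 days against the control 2 were higher and none lower, with a median of 0.31, where 12.2% of all tested genes were higher and 12.8% lower. These were Sos2, a RAS activator, at 5.55 against 1.41 FPKM, and Pik3r1, the regulatory subunit of PI3K, at 3.74 against 1.18 FPKM. Akt1, the kinase downstream of PI3K, was at 28.4 FPKM in the control, 46.6 FPKM at 0 days, 74.8 FPKM at 6 days and 89.6 FPKM at 10 days. Map2k2, an ERK pathway kinase, had 29.1 FPKM in the control, 26.8 FPKM at 0 days, 38.6 FPKM at 6 days and 48.3 FPKM at 10 days. No gene of this list passed 2-fold in either of the later steps, where 13.1% and 4.55% of all tested genes did.

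The 4 genes in the table out of 10 that LIF or Stat3 induces in mouse embryonic stem cells were all 2-fold or more lower at 0 days than in the control on the deposited scale, with a median of -2.14, beside 12.8% of all tested genes. Upper-quartile scaling left 3 of them, with Myc at -0.97. Klf5, a Krüppel-like factor of self-renewal, had 30.8 FPKM at 0 days against 248 FPKM in the control, and Tfcp2l1, a naive-state factor, 4.08 against 48.3 FPKM. Gbx2, a homeobox factor, had 10.1 against 26.5 FPKM, and it stood at 1.00 FPKM at 6 days. Myc had 9.55 FPKM at 0 days against 21.5 FPKM in the control, but 13.1 FPKM at 6 days and 18.1 FPKM at 10 days. Klf5, Tfcp2l1 and Gbx2 were also 2-fold or more lower at 10 days than in the control, beside 17.1% of all tested genes. Myc and Socs3 were not.

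Pim3, a relative of Pim1 and the 1 of 2 other PIM kinase genes in the table, was the more abundant of the pair in every library. It was at 97.2 FPKM in the control, 47.7 FPKM at 0 days, 26.6 FPKM at 6 days and 68.6 FPKM at 10 days. It was 2-fold lower at 0 days than in the control, by -1.01, but by -0.88 under upper-quartile scaling, where Socs3 was also short of 2-fold. Of all tested genes 12.8% were lower at 0 days against the control. Pim3 was also 2-fold lower at 6 days than in the control, by -1.83, beside 12.5% of all tested genes. It was 2-fold higher at 10 days than at 6 days, by 1.33, beside 3.70% of all tested genes.

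Of 12 genes that Stat3 induces in other cells 7 were in the table and 6 were tested. At 10 days against 6 days 3 of these were 2-fold higher and none lower, with a median of 0.76, where 3.70% of all tested genes were higher and 0.850% lower. They were Ier3, a stress-response gene, at 112 against 45.7 FPKM, the immediate early gene Fos at 13.0 against 5.35 FPKM, and Cebpd, an acute-phase transcription factor, at 6.02 against 1.67 FPKM. Fos at 10 days was nonetheless far below its levels at 0 days and in the control. It had 13.0 FPKM against 72.2 FPKM at 0 days and 46.0 FPKM in the control, differences of -2.39 and -1.75. In the listed order Ier3 was higher in each library than in the one before, with 3.42 FPKM in the control. At 0 days against the control 2 of the list were 2-fold higher (all genes: 12.2% higher, 12.8% lower). They were Ier3 at 15.3 against 3.42 FPKM and the vessel growth factor Vegfa at 80.5 against 30.9 FPKM. In that comparison 1 was lower, Birc5, an inhibitor of cell death, at 70.6 against 168 FPKM, a difference of -1.24 that was -0.99 under upper-quartile scaling over the tested genes. Lrg1, an acute-phase glycoprotein, was listed at 0 in 3 libraries and at 0.0330 FPKM at 6 days. Many of these genes answer to other signals too.

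**Figure D4:**
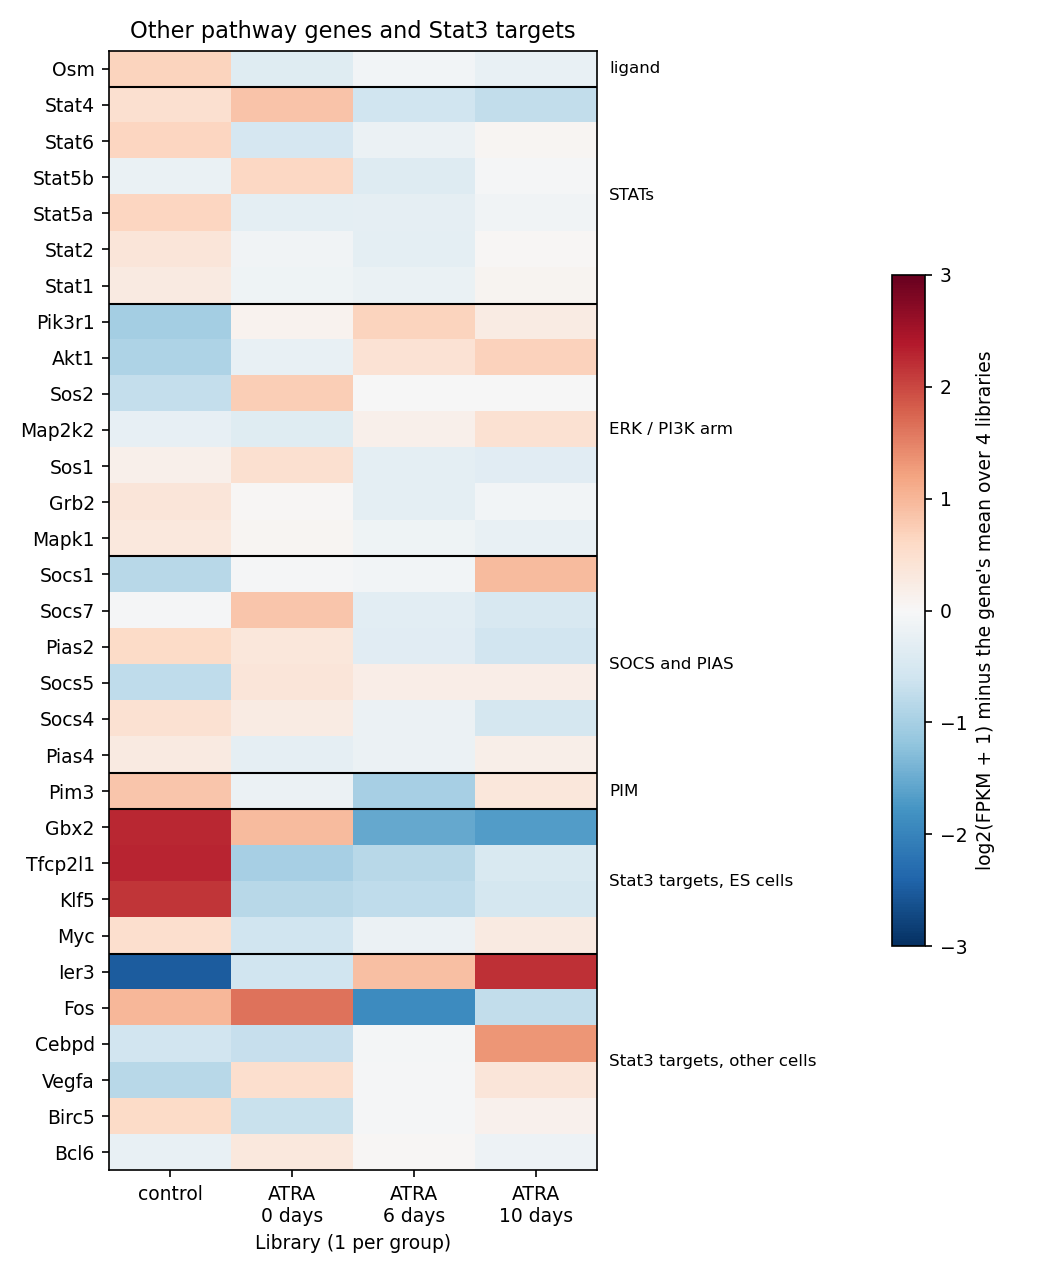
Level of each tested pathway gene outside the 8 in the control library and the ATRA libraries at 0, 6 and 10 days, as log2(FPKM + 1) minus the gene's own mean over the 4 libraries. Rows are grouped by list, and red is above and blue below the gene's mean. Klf5, Tfcp2l1 and Gbx2 are reddest in the control, Ier3 is bluest there and reddest at 10 days, and Pim3 is lowest at 6 days, at 26.6 FPKM.

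For the 4 genes that ranged 2-fold or more over the libraries, the genes of most similar pattern were sought by the distance between profiles of log2(FPKM + 1), each centred on its mean over the 4 libraries. There were 4233 genes to compare with, each reaching 5 FPKM in some library. Such nearness over 4 libraries is a description. Socs2 had 5 genes within a distance of 0.5 (0.118%). The nearest were Adarb2, of the RNA-editing enzyme family, at 0.13, Pecam1, an adhesion molecule of endothelium that mouse embryonic stem cells also carry, at 0.32, and Cbs, cystathionine beta-synthase, at 0.49. Pecam1 had 21.1 FPKM in the control, 1.37 FPKM at 0 days, 4.15 FPKM at 6 days and 2.05 FPKM at 10 days. Of the listed pathway genes Klf5 came nearest to Socs2, in place 55.

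Socs3 had 9 genes within that distance (0.213%). The nearest were Naprt, an enzyme of NAD synthesis, at 0.21, Ephx1, microsomal epoxide hydrolase, at 0.22, and Plcd3, a phospholipase C, at 0.29. Naprt had 11.5 FPKM in the control, 5.38 FPKM at 0 days, 5.33 FPKM at 6 days and 13.4 FPKM at 10 days. Pim3 was in place 24 and Myc in place 37 of the 4233 genes, at distances of 0.57 and 0.61.

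Pim1 had 209 genes within 0.5 (4.94%), led by Etnk2, an ethanolamine kinase, at 0.07, Eif4a2, a helicase of translation initiation, at 0.07, and Ppfia4, a liprin scaffold protein, at 0.12. For Osmr the measure says little, since adding 1 FPKM flattens a gene this low: its FPKM ranged 8.78-fold, and its 10-day difference from the control was 1.02 but 2.51 with 0.1 FPKM added instead. On the flattened scale 414 genes (9.78%) lay within 0.5 of Osmr, led by Pex6, a peroxisome assembly factor, at 0.05, Cant1, a nucleotidase, at 0.07, and Itga5, an integrin subunit, at 0.07. Among the 8 genes Il6st and Stat3 were the closest pair that did not involve Osmr, at 0.63.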

How the data were processed

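The deposited values are FPKM, per the file headers, with 1 column for each of the 4 libraries. Per the submitters' processing notes, the tools were Trimmomatic, TopHat and Cufflinks, with build mm10. Annotation, filters and use of strand: not given in the sources used here. Because FPKM is relative to the library total, abundant transcripts lower all other values.

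The table had 10201 rows and 9997 symbols; rows of 177 repeated symbols were summed. It held 8118 of 9269 protein-coding genes of chromosomes 1 and 10 to 18; other genes were not analysed here. Positions and transcript lengths came from GENCODE M21. Depth was estimated from 1406 genes with 1 transcript of 800 nt or more: the median of their values between 0.02 and 0.05 FPKM times kb was taken as 1 fragment. Counting errors follow from it, cover counting alone, and assume the longest coding transcript.

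Differences were taken on log2(FPKM + 1) among genes that reached 1 FPKM in some library. Genes were named as members, as the tested genes of widest range in each pathway list (up to 4), and as the 3 nearest patterns, passing over predicted genes and small RNAs. Ebi3, Il31ra, Lrg1, Birc5 and the markers were named after their values were seen. The members and lists were chosen with earlier results of these data known. The steps were tested on simulated data. Alternatives were pseudocounts, filters, scalings and a 4-fold mark. Python 3.11.15, numpy 2.4.6, pandas 2.3.3 and matplotlib 3.10.9 were used.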

Additional observations from a re-analysis of the deposited data

How the results depend on the processing

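No paired analysis was possible because each group has 1 library. Of the 48 differences of the 8 genes (6 comparisons), 43 had the same sign under all settings tried; the 5 others were Lifr at 10 days against 6 days and against the control, Socs3 at 10 days against the control, and Stat3 at 10 days against 0 days and at 6 days against the control. A pseudocount of 0.1 changed the number of higher genes among the 8. It was 1 (Osmr) at 0 days against the control, 2 at 10 days against 6 days and 2 at 10 days against 0 days. It was 1 (Osmr) at 6 days against the control and 2 (Lif, Osmr) at 10 days against the control. Of all 5885 tested genes 1111, 363, 1076, 1225 and 1468 were higher in the same order. With 1 FPKM added these were 720, 218, 848, 903 and 1156. A pseudocount of 0.5 gave 2 higher genes of the 8 at 10 days against 0 days, where 958 of all 5885 tested genes were higher. Upper-quartile scaling, and the 2 scalings added after seeing the data, median-ratio over genes at 1 FPKM in every library and upper-quartile over tested genes, each left 1 lower gene, Socs2, at 0 days against the control and 1, Socs2, at 10 days against the control. Of all tested genes these scalings, in that order, left 601, 558 and 497 lower at 0 days against the control (752 as deposited). At 10 days against the control they left 889, 773 and 863 lower (1005 as deposited). Upper-quartile scaling over tested genes left 0 of the 8 higher at 10 days against 0 days, without Socs3. There 713 of all tested genes were higher (848 as deposited). A filter at 5 FPKM left 0 of the 8 higher at 10 days against the control, since Osmr was no longer tested. Of all 4508 genes tested under that filter 860 were higher. With a 4-fold threshold 1 lower gene, Socs2, was left at 0 days and 1 at 10 days against the control, 0 at 6 days against the control, and 0 higher genes in each of the 4 comparisons that had 1. Of all tested genes 153, 189 and 146 were then lower at 0, 10 and 6 days against the control. Those 4-fold higher were 133 at 6 days against 0 days and 29 at 10 days against 6 days. There were 248 at 10 days against 0 days and 469 at 10 days against the control. The other settings changed none of the counts of the 8 genes. The low level of Osmr limits its value in the control most.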

Other observations

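Several of the 8 genes lie beside a relative on the chromosome, and their values are set side by side here. Osm lies 16.5 kb from Lif on chromosome 11 (4236420 to 4241026, plus strand), with no coding gene between. Osm had 0.133 FPKM at 10 days against 1.12 FPKM in the control, where Lif had 5.86 FPKM at 10 days against 2.79 FPKM in the control. Il31ra lies 9.81 kb from Il6st on chromosome 13, with no coding gene between, and it was at or near 0 in all 4 libraries while Il6st was between 8.17 and 12.4 FPKM. Osmr and Lifr lie 216 kb apart on chromosome 15 with no coding gene between. Within the ATRA series both were higher in each later library as deposited, and at 10 days against 0 days they differed by 0.73 (Osmr) and 0.75 (Lifr). Against the control at 10 days Osmr differed by 1.02 and Lifr by -0.12, and the sign of the Lifr difference depended on the scaling.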
